A study of Homo sapiens with 3 samples.

Results

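The comparison of day 3 with day 1 followed the transcripts of L428tetPU.1 cells over the later stage after tetracycline was taken away. It took in every named gene whose brightest probe was above background, at a detection p-value under 0.01, on the day 1 array, the day 3 array or both. These were 9318 of the 19367 named genes, and 8489 of them were above background on both arrays. Between the 2 days 330 genes rose and 365 fell by at least 2-fold. Of the 330, 229 had a day 3 level nearer to day 0 than their day 1 level was, and of the 365, 337 did. Of the 855 genes that had risen by day 1, 285 fell again by day 3 and 12 rose further. Of the 743 that had fallen by day 1, 178 rose again and 0 fell further. After no called change at day 1, 140 genes rose and 80 fell, and 56 of the 140 and 7 of the 80 also passed the rule against day 0. Rises included genes of the hypoxia response (12 of 33 measured), interferon response (9 of 56) and histones (7 of 29). They also included genes of cholesterol synthesis and uptake (6 of 29) and of cytokines and their receptors (6 of 36). Falls included lysosomal (10 of 65), myeloid (6 of 17) and adhesion genes (6 of 47). Over all measured genes 3.54% were higher and 3.92% lower. Lists share members, such as CD68 (lysosomal and myeloid) and PLEK (myeloid and adhesion).

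L428 is a long-established human line from classical Hodgkin lymphoma, a B cell tumour that has lost much of its B cell programme. L428tetPU.1 was derived from it, and PU.1 was induced by removal of tetracycline from medium that held 500 ng/ml of it. Day 0, day 1 and day 3 had 1 array and 1 column of values each, although the design text speaks of 4 independent experiments behind every RNA sample. No change between days therefore has a replicate error and none was tested. All 3 arrays hold the same derived line, and whether the line is 1 clone is not stated by the labels.

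A gene was called higher or lower where its normalized signal differed by at least 2-fold, or 1 on the log2 scale. Where a gene was above background on 1 of the 2 arrays but not the other, the change against the lowest signal above background on the dimmer array had to reach 2-fold too, and such a change is written "at least N-fold". "Rose", "fell", "higher" and "lower" are used of genes past this size rule. Levels are normalized log2 signals of 1 probe and serve to compare days, not genes. The error between probes of one gene was 0.31 log2 for this comparison (SD, 489 genes with more than 1 probe above background throughout). It leaves out differences between cultures and RNA preparations. The background of calls was 3.54% of measured genes higher and 3.92% lower for day 3 against day 1. It was 9.18% and 7.98% for day 1 against day 0, and 4.97% and 2.13% for day 3 against day 0.

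Both steps share the day 1 array, whose error enters them with opposite sign. A departure of that 1 array cannot be told apart from a change in the cells that came and went. The comparison of day 3 with day 0 does not use it, so for the main groups the number of genes that also passed the rule against day 0 is given. The median intensity of the arrays lay between 35.9 and 36.7 at these 2 days, and 23.2% of probes were above background at day 1 and 23.1% at day 3. The dimmest probe above background read 64.5 at day 1 and 67.0 at day 3, and the brightest probe not above background read the same to 1 decimal. The median change from day 1 to day 3 was 0.00 over measured genes and 0.01 over the 8090 above background on all 3 arrays, to be read beside the medians of gene groups given below. In RNA from whole cultures, fewer cells with a transcript and less of it per cell cannot be told apart.

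PU.1, the product of SPI1, directs myeloid differentiation as a transcription factor and also acts in early B cells. It binds a purine-rich box with a GGAA core. Cells that respond to low oxygen use hypoxia-inducible factors, which bind an element around ACGTG, and cells that respond to interferon use STAT and IRF factors, which bind paired GAAA repeats. SREBP factors switch on cholesterol synthesis when membrane sterol is short.

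Promoters of genes from 3 of the groups described below are shown as examples of the motifs whose shares follow. The sequences are those of RefSeq on GRCh38.p14, each the 250 bases before the start. In the promoters of BNIP3 and DDIT4, which rose by day 3, capitals mark ACGTGC on either strand, and in BNIP3 the matches on the 2 strands overlap. In those of the interferon genes IFIT1 and ISG15 capitals mark GAAANNGAAA on either strand, with overlapping matches in ISG15. In that of CCL22, the widest rise, and of INPP5D, which rose by day 1 and fell by day 3, capitals mark the PU.1 box GAGGAAGT.
BNIP3, chr10:131981924-131982173, minus strand: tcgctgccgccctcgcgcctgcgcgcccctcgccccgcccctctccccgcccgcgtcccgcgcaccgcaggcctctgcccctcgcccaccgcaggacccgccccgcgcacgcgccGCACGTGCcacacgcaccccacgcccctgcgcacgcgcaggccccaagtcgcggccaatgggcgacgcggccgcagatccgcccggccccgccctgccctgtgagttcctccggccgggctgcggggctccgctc
DDIT4, chr10:72273674-72273923, plus strand: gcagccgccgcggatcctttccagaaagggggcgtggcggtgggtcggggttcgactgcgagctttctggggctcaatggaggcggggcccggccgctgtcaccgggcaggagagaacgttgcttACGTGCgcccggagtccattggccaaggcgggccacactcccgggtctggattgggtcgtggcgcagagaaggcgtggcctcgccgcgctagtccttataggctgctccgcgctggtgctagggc
IFIT1, chr10:89392373-89392622, plus strand: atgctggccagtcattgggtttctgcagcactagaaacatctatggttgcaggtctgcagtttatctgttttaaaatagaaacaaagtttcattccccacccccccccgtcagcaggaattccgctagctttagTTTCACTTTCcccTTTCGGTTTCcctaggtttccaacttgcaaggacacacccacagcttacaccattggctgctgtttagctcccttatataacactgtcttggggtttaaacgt
ISG15, chr1:1013247-1013496, plus strand: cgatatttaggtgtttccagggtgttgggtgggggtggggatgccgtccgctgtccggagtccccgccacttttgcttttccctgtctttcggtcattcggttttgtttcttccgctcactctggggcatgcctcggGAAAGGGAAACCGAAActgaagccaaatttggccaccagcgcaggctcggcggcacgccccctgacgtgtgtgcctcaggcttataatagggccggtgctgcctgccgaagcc
CCL22, chr16:57358533-57358782, plus strand: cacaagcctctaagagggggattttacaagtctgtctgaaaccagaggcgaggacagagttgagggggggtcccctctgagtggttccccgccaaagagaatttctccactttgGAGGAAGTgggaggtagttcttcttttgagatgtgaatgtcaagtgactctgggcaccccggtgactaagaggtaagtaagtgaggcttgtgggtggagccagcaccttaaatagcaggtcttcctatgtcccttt
INPP5D, chr2:233060092-233060341, plus strand: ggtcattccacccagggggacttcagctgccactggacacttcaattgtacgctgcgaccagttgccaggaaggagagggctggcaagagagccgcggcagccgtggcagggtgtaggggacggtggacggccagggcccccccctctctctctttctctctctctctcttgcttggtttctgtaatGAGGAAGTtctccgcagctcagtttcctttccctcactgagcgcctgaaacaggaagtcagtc

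Each motif was searched on both strands of windows of 250 bases before to 50 after each start, and a gene counted if any of its windows held it. Of the 27305 genes in the promoter table, 8.33% held ACGTGC, 4.38% held GAAANNGAAA and 3.15% held GAGGAAGT. Among measured genes with a window (7526 of 9318), the shares were 11.4%, 4.24% and 4.09%. ACGTGC was in 6 of the 10 hypoxia genes that rose and had a window, and in 4 of 17 that did not pass the rule. The E-box CACGTG, which can share letters with ACGTGC, was in 4 of the 10 and 3 of the 17, against 12.9% of measured genes. Those 4, AK4, ANKRD37, BNIP3 and KDM4B, also held ACGTGC. GAAANNGAAA was in 7 of 7 interferon genes that rose, but also in 22 of 36 that did not pass the rule. GAGGAAGT was in 7 of 33 genes whose rise was reversed in part, INPP5D, PTPN6 and FERMT3 among them, and in 16 of 201 whose rise was reversed in full. It was also in 37 of 440 genes that rose by day 1 and did not pass the rule after it, and in 2 of 48 late rises. A match describes the letters in the window and is not a bound site.

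**Figure D1:**
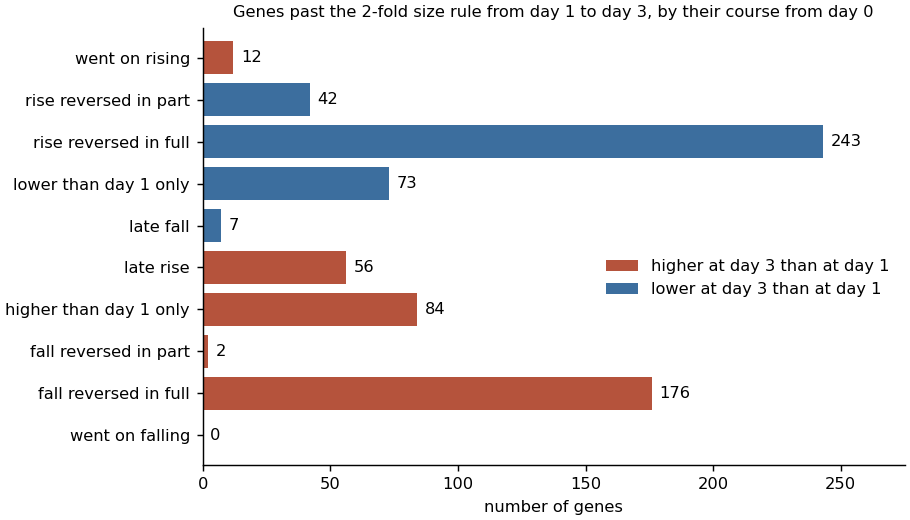
The bars give the number of genes past the 2-fold size rule from day 1 to day 3, grouped by their course from day 0, with 1 array per day. Red bars are genes higher at day 3 than at day 1 and blue bars genes lower; the largest group, 243 genes, had risen by day 1 and no longer passed the rule against day 0.

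Genes that rose at both steps were few. The 12 were CCL22, ADA, PFKFB4, WNT5B, IL12A, IL1A, TNFAIP6, CLEC4A, PLSCR1, CGNL1, IFIT1 and IFI44. CCL22, a chemokine of dendritic cells and Reed-Sternberg cells that draws CCR4-bearing T cells, had a level of 5.98 at day 0, 7.74 at day 1 and 10.75 at day 3. It was above background on every array, and its later rise of 3.01 log2 was the widest in the comparison. ADA, adenosine deaminase of purine salvage, stood at 5.14, 6.74 and 9.67 and rose by 2.94 over the later step. It was not above background at day 0, and its level at day 3 was at least 15.5-fold higher. CCL22 gained more in the later step than in the earlier one of 1.76 log2.

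Cytokine and pattern receptor genes made up part of this group. IL12A, the p35 subunit of interleukin 12, had levels of 7.47, 9.87 and 11.42, with changes of 2.40 and 1.55. IL1A, interleukin 1 alpha, stood at 4.75, 7.52 and 8.98, and was at least 9.59-fold higher at day 3 than at day 0. CLEC4A, an inhibitory lectin receptor of dendritic cells and monocytes, stood at 5.41, 10.22 and 11.44. Most of its rise came by day 1, and it added 1.21 log2 after that. TNFAIP6, a secreted hyaluronan-binding protein made in inflammation, went from 8.64 to 9.74 and 10.99. WNT5B, a Wnt ligand, stood at 5.25, 7.11 and 8.68, and CGNL1, a tight junction protein, at 6.07, 8.91 and 10.05. PFKFB4, which makes the activator of phosphofructokinase, went from 6.52 to 7.56 and 9.71.

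The 12 genes kept their course to different degrees. CCL22, CGNL1, IFIT1 and IL12A rose at both steps under each of the 8 other settings that use all 3 arrays. ADA and PFKFB4 did so under 4 of them, and in the authors' deposited values 7 genes in place of 12 rose at both steps.

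Among the 56 genes with no call at day 1 that were higher at day 3 than on both other days, UPK1A had the widest change of those measured on both arrays. The levels of UPK1A, a urothelial membrane protein, were 7.01, 7.45 and 10.07. ZNF395, a zinc finger gene also known from the response to low oxygen, stood at 7.89, 7.32 and 9.87, a later rise of 2.55 log2. NDST4, a heparan sulfate sulfotransferase, stood at 7.03, 6.43 and 8.95. These genes changed by less than the rule by day 1 and were 1.92 to 3.06 log2 above day 0 at day 3. TFPI2, an extracellular protease inhibitor, stood at 8.92, 8.14 and 10.61, and TMEM45A at 5.71, 6.42 and 8.90. GALNT9, which starts O-linked glycan chains, was above background only at day 3 and was at least 5.43-fold higher there than at day 1. MIR17HG, the host transcript of the miR-17 cluster, stood at 6.16, 4.72 and 7.52 and was at least 3.80-fold higher at day 3 than at day 1. KISS1R, a neuropeptide receptor, was at least 2.43-fold higher. Both MIR17HG and KISS1R had a day 1 level below day 0. Of the 56, 23 changed by under 0.5 log2 in the earlier step. Another 6, RSAD2 and IL1B among them, had gained at least 1 log2 by day 1 by value, but their bound fell short. The authors' deposited values gave 37 genes of this course in place of 56 and an offset of 50 gave 35. Of the 56, 22 kept this course under each of the 8 other settings that use all 3 arrays. KISS1R kept it under 2 of them, and RSAD2 and IL1B under 1 each. Another 84 genes rose after no call at day 1 but were not past the rule against day 0, with median levels of 7.81, 7.34 and 8.49. CTH, B4GALT6, a lactosylceramide synthase, and STK17B, a kinase, were among them, with later rises of 1.70, 1.66 and 1.54 log2.

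**Figure D2:**
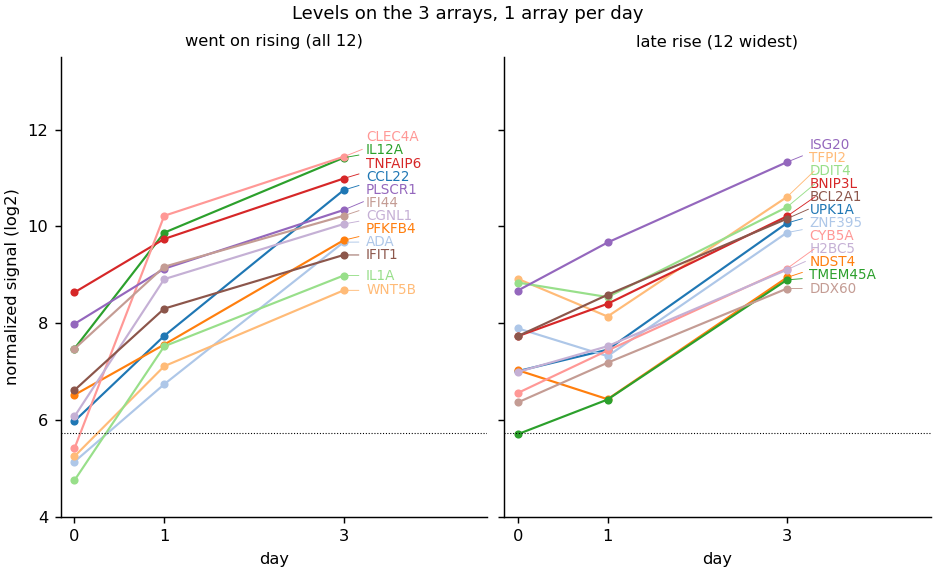
Normalized log2 signal of 1 probe per gene at day 0, day 1 and day 3, for the 12 genes that rose at both steps and the 12 widest late rises above background at day 1 and day 3. The dotted line is the highest of the 3 arrays' lowest signals above background; CCL22 and ADA climb most after day 1, while CLEC4A gained most of its level before it.

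The hypoxia response genes had the highest median change of the 53 lists examined. Of 39 on the arrays 33 were measured, and their median change was 0.70 log2. The median was 0.86 over the 26 above background on all 3 arrays, whose earlier median change was 0.42. In this list 12 members rose and 1 fell, against the background of 3.54% of measured genes higher. The rises were ZNF395, PFKFB4, DDIT4, ANGPTL4, BNIP3L, BNIP3, FAM162A, VEGFB, AK4, ANKRD37, INSIG2 and KDM4B. Of the 12, 10 also passed the rule against day 0, all but ANKRD37 and VEGFB. Members of a list beyond its 4 widest were chosen for mention after their values were seen, here and below.

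DDIT4, which restrains mTORC1 under stress, had levels of 8.84, 8.54 and 10.40. BNIP3, a mitophagy receptor of the BCL2 family whose promoter is printed above, stood at 10.47, 11.24 and 12.72, and its relative BNIP3L at 7.73, 8.40 and 10.21. Both gained more after day 1 than before it, with later changes of 1.48 and 1.81 log2. ANGPTL4, an inhibitor of lipoprotein lipase, was above background only at day 3, at least 2.43-fold higher than at day 1. FAM162A, a mitochondrial protein induced by low oxygen, stood at 9.31, 9.15 and 10.58, and AK4, a mitochondrial adenylate kinase, at 8.30, 9.13 and 10.44. ANKRD37 went from 7.56 at day 1 to 8.63, INSIG2, an ER anchor of sterol sensing, from 9.55 to 10.59, and KDM4B, a histone demethylase, from 6.07 to 7.08. VEGFB, a vascular growth factor, had fallen to 7.66 by day 1 and was back at 8.98 at day 3, against 8.97 at day 0.

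Other members of the list moved less. HIF1A, the oxygen-regulated subunit of the factor itself, changed by 0.24 log2, SLC2A1, a glucose transporter, by 0.55, NDRG1 by 0.20 and P4HA1, a collagen prolyl hydroxylase, by 0.97. EPAS1, which encodes HIF-2 alpha, was above background only at day 1 and was at least 2.09-fold higher there than at day 3. In the glycolysis list PFKFB4 rose, PGM2, a phosphopentomutase, fell by 1.17, and the other 27 of 29 measured did not pass the rule. LDHA, lactate dehydrogenase A, and ENO1, enolase, changed by 0.21 and 0.05. Under the other settings 9 to 12 hypoxia genes rose.

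Of the interferon response genes, 35 of 56 measured were higher at day 1 than at day 0, and 3 of these rose again by day 3. Over the 44 above background on all arrays, the median change was 1.33 log2 to day 1 and 0.37 from day 1 to day 3. Of 56 measured in the later step, 9 rose and 0 fell, and 42 changed by more than 0. Of the 9, all but LY6E also passed the rule against day 0. ISG20, an exonuclease that degrades viral RNA, had levels of 8.68, 9.67 and 11.33. DDX60, a helicase that aids RNA sensing, stood at 6.36, 7.18 and 8.72, and ISG15, a ubiquitin-like modifier, at 9.99, 10.44 and 11.73. USP18, which removes ISG15 from proteins and dampens interferon receptor signalling, stood at 7.08, 7.83 and 9.05. These 4 passed the rule only at the later step, while IFIT1, IFI44 and PLSCR1 passed it at both.

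IFIT1, which binds foreign 5′ ends of RNA, stood at 6.62, 8.30 and 9.41, and PLSCR1, a phospholipid scramblase, at 7.99, 9.13 and 10.34. RSAD2, or viperin, stood at 4.49, 6.33 and 7.33, with a later change of 1.00. LY6E, a membrane-anchored protein, had fallen by 1.12 to day 1 and then rose by 1.00, so it returned to near its day 0 level. Another 32 had risen by day 1 and did not pass the rule afterwards. OAS3, which makes 2-5A in answer to double-stranded RNA, was at 9.61 at day 1 and 9.44 at day 3. MX1, an antiviral GTPase, changed by 0.45 and IRF7, the factor that amplifies type I interferon, by 0.57. IFI44L, with a level of 6.25 at day 0, 9.49 at day 1 and 10.47 at day 3, lay just under the rule at 0.99.

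Among chemokine, cytokine and cytokine receptor genes 6 rose and 2 fell of 36 measured, with a median change of 0.30 log2. Beside CCL22, IL12A and IL1A, the rises were of IL6, IL13 and IL1B, and all but IL13 also passed the rule against day 0. IL6, an inflammatory cytokine and B cell growth factor, had levels of 7.17, 7.40 and 8.65. IL13, an autocrine growth factor of Hodgkin lymphoma cells, stood at 8.71, 8.11 and 9.31. IL1B stood at 4.76, 6.09 and 7.11. IL7R, the interleukin 7 receptor, and TGFBR2, a TGF-beta receptor, fell. IL7R stood at 6.82, 9.56 and 7.89, and a second probe for it fell by 1.62 log2.

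Of 44 measured NF-kB target and feedback genes, 3 rose and 3 fell, with a median change of 0.02. CCL22, IL6 and BCL2A1, an anti-apoptotic BCL2 relative at 7.73, 8.59 and 10.16, were the rises. The falls were of genes that restrain the pathway: NFKBIE, an inhibitor of NF-kB, went from 8.87 at day 1 to 7.36, CYLD, a deubiquitinase, from 8.45 to 7.38, and ZC3H12A, a nuclease of cytokine mRNA, from 8.62 to 7.55. Each of these 3 had risen by day 1. BCL2A1 was also the rise among 18 measured anti-apoptotic genes.

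Of 29 measured cholesterol synthesis and uptake genes, 6 rose and 0 fell, and 24 changed by more than 0. The median change was 0.65 log2 over the 28 above background on all arrays, against 0.05 in the earlier step. LSS, lanosterol synthase, had levels of 7.88, 7.44 and 8.80, and a second probe rose by 1.08 log2. IDI1, isopentenyl diphosphate isomerase, stood at 9.30, 9.01 and 10.37, and FDPS, farnesyl diphosphate synthase, at 8.96, 8.97 and 10.07. STARD4, a sterol carrier, stood at 5.92, 6.27 and 7.45. These levels changed by less than 0.5 log2 to day 1 and by 1.10 to 1.36 after it.

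MYLIP, which marks the LDL receptor for breakdown, and INSIG2 were the other rises, and of the 6 all but LSS and MYLIP also passed the rule against day 0. CYP51A1, lanosterol demethylase, changed by 0.86, DHCR7, the last enzyme of the pathway, by 0.69, and SQLE, squalene epoxidase, by 0.46. SREBF2, the factor of the pathway, was at 10.29 at day 1 and 9.76 at day 3. The sterol element TCACNCCAC was in 0 of the 6 promoters of the rises, and in 1.39% of all genes of the promoter table. It was in 1 of 26 promoters of the measured list. A motif this rare would seldom turn up in 6 promoters, so the count is uninformative, and a part of SREBP was not tested. In the authors' deposited values 4 genes of the list rose. Fatty acid synthesis genes did not share the pattern in their counts: of 22 measured 0 rose and 2 fell. ACSS2, which makes acetyl-CoA from acetate, stood at 4.59, 8.21 and 5.29, at least 6.07-fold higher at day 1 than at day 3. ACSL5, an acyl-CoA synthetase, went from 9.74 at day 1 to 8.33.

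**Figure D3:**
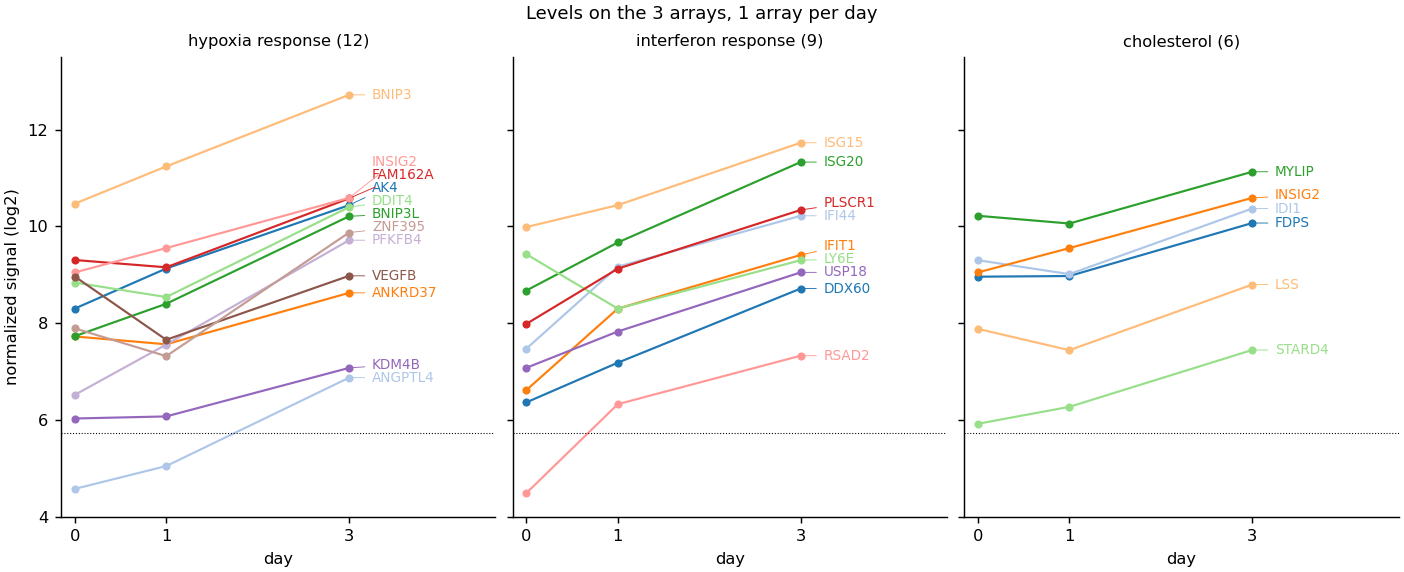
Normalized log2 signal at day 0, day 1 and day 3 for the hypoxia (12), interferon (9) and cholesterol (6) genes that rose from day 1 to day 3. The dotted line is the highest of the arrays' lowest signals above background; the cholesterol genes are nearly level to day 1 and climb after it, and VEGFB and LY6E dip at day 1.

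Histone genes gave 7 rises and 0 falls of 29 measured, with a median change of 0.64 log2. The median was 0.24 over the 21 above background on all arrays, and without background correction or in the authors' deposited values 4 rose, and 3 with an offset of 50. H2BC5, a core histone H2B, stood at 6.99, 7.52 and 9.11, and a second probe for it changed by 0.99. H1-2, a linker histone, stood at 10.44, 9.72 and 11.11. H2BC4 and H2BC6, other H2B genes, were not above background at day 1 and were at least 2.29-fold and 2.04-fold higher at day 3. Their calls ended under 4 of the 9 alternatives each. H2BC21, H4C8 and H2AB1 also rose. H2BC5 and H4C8 passed the rule against day 0 and the other 5 did not. Histone probes can read near-identical family members.

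Secretory and stress genes gave small numbers of calls, to be read beside 3.54% of all measured genes higher. XBP1, the factor of plasma cells and of the unfolded protein response, had levels of 10.41, 10.42 and 11.54. It was the rise among 24 measured plasma cell and secretory genes, whose median change was 0.40 log2. PRDM1, which directs plasma cell differentiation, went from 7.38 to 9.29 at day 1 and changed by 0.80 after it, while a second probe changed by -0.48. IRF4 stood at 12.14, 12.14 and 11.99. With XBP1, DNAJB9, an ER co-chaperone, rose by 1.03 of 27 measured unfolded protein response genes. Among 29 measured amino acid stress genes DDIT4, CTH, the enzyme that makes cysteine, and CHAC2, a glutathione-degrading enzyme, rose. CHAC2 had fallen to 6.75 by day 1 and stood at 8.44 at day 3.

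The falls from day 1 to day 3 were mainly of genes that had risen by day 1. CD68, a lysosomal glycoprotein of macrophages, had levels of 7.09, 12.03 and 9.03. Its fall of 3.00 log2, or 7.98-fold, left it 1.94 above day 0. OTOF, a protein of vesicle fusion known from hair cells, stood at 4.91, 9.61 and 6.04 and fell by 3.57, the widest fall among genes above background at both days. RAPGEF3, a cAMP-activated exchange factor of RAP1, stood at 5.46, 10.63 and 8.08. ARHGAP9 stood at 5.59, 11.12 and 8.78. CD68, RAPGEF3 and ARHGAP9 kept part of their gain, whereas for OTOF, not above background at day 0, the bound against day 0 fell short of the rule.

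Genes not above background at day 3 gave the widest bounds. GPR84, a fatty acid receptor of myeloid cells, stood at 4.64, 9.21 and 4.92 and was at least 12.1-fold higher at day 1 than at day 3. FCGBP was at least 6.74-fold higher at day 1, SCNN1A, a sodium channel subunit, at least 5.61-fold, GSN, the actin-severing gelsolin, at least 3.97-fold and VDR, the vitamin D receptor, at least 3.79-fold. For these 5 genes day 3 and day 0 were within 1 log2 of each other. ZNF385A went from 8.86 at day 1 to 5.75, DAXX, a histone chaperone, from 10.10 to 7.36, and SIDT2 from 9.03 to 6.66. SEMA4A, a semaphorin of immune cells, went from 9.25 to 6.67, RND1 from 8.62 to 6.36, and ADHFE1 from 8.45 to 6.01. PROS1, protein S of coagulation, was 2.17 lower at day 3.

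Of the 285 reversed rises, 243 no longer passed the rule against day 0 and are called reversed in full, and 42 still did and are called reversed in part. Among the 243, 150 had a day 3 level within 0.5 log2 of day 0 and 65 a level at or below it. Another 21, LMO2 and SEMA4A among them, were still at least 1 log2 above day 0 by value, with a bound short of the rule. The 42 had a median change of 2.97 log2 to day 1, against 1.66 for the 243, and of -1.39 after it. A reversal in part needs a rise that leaves room for a fall and a remainder both past the rule. The wider earlier rise of the 42 thus follows from the definition. The median level of the 42 was 6.34, 10.2 and 8.47 on the 3 arrays. A further 558 genes that rose by day 1 did not pass the rule in the later step, and their median change over it was -0.52. They include CDKN1A, the p21 inhibitor of cyclin-dependent kinases, at 7.63, 12.69 and 12.27, and LAMP3, a lysosomal protein of mature dendritic cells, at 6.72, 10.93 and 10.64.

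**Figure D4:**
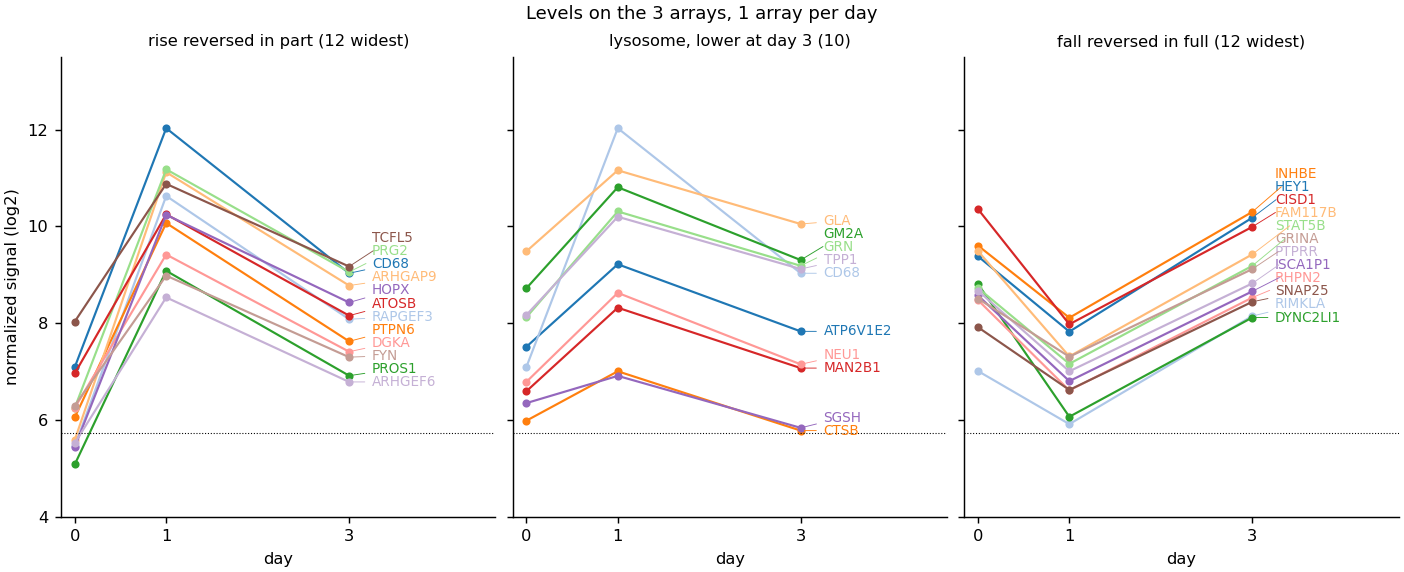
Normalized log2 signal at day 0, day 1 and day 3 for the 12 widest falls among genes whose rise was reversed in part, the 10 lysosomal genes that fell, and the 12 widest rises among genes whose fall was reversed in full. The dotted line is the highest of the arrays' lowest signals above background; in each panel the day 1 level lies to one side of both other days.

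Myeloid and macrophage genes gave 6 falls and 1 rise of 17 measured, out of 46 on the arrays. The median change was -0.57 log2, and -0.61 over the 10 above background on all arrays. Beside CD68, PRG2, the major basic protein of eosinophils, fell from 11.18 to 9.06, and AIF1, an actin-binding protein of macrophages, from 8.27 to 6.63. LST1, a small leukocyte membrane protein, was at least 2.20-fold higher at day 1 than at day 3, and a second probe fell by 2.26 log2. SIRPA, the inhibitory receptor for CD47, stood at 5.75, 11.55 and 10.38, and PLEK, a protein kinase C substrate, at 6.41, 11.54 and 10.49. Both fell by little more than the rule, 1.17 and 1.04, and stayed over 4 log2 above day 0. Of the 6 falls, 4 remained past the rule against day 0: CD68, PRG2, SIRPA and PLEK. CLEC4A was the rise, and ITGB2, the beta 2 integrin, changed by 0.89. The list's median moved to -0.01 when detection was set at 0.05 in place of 0.01, and to -0.02 with no detection filter, as dimmer members then entered. SPI1 itself was not above background on any array, with levels of 4.75, 4.63 and 4.70, so these values hold no measure of PU.1 RNA.

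Lysosome and V-ATPase genes gave 10 falls and 0 rises of 65 measured, with a median change of -0.29 log2. The list's median over 58 members above background on all arrays was 0.46 to day 1, -0.29 after it, and 0.07 over both steps. GM2A, the activator of ganglioside breakdown, stood at 8.72, 10.81 and 9.30. NEU1, a sialidase, stood at 6.79, 8.63 and 7.15, and ATP6V1E2, a V-ATPase subunit, at 7.51, 9.22 and 7.83. MAN2B1, CTSB, GRN, GLA, TPP1 and SGSH were the other falls, of 1.07 to 1.25 log2. Of the 10, CD68 and GRN remained past the rule against day 0. Counts of falls lay between 8 and 10 under the other settings.

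Integrin, adhesion and migration genes gave 6 falls and 1 rise of 47 measured, and 37 changed by less than 0. CORO1A, an actin regulator of leukocytes, stood at 10.46, 11.61 and 10.23. FERMT3, which activates integrins in blood cells, stood at 7.42, 10.00 and 8.69. ZYX and ACTN1, proteins of focal adhesions, fell by 1.04 and 1.08, and ARHGAP9 and PLEK are in this list too. Of the 6 falls, 3 remained past the rule against day 0. DOCK8, a CDC42 exchange factor, was above background only at day 3, at least 2.54-fold higher than at day 1.

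B cell identity and receptor signalling genes gave 2 falls of 23 measured, both of phosphatases that dampen receptor signals. PTPN6, or SHP-1, stood at 6.05, 10.07 and 7.62, and INPP5D, or SHIP-1, at 6.63, 10.41 and 8.96. Both remained past the rule against day 0. In the JAK-STAT list of 25 measured, PTPN6 and STAT6 fell and STAT5B rose. STAT6, the interleukin 4 and 13 signal transducer, went from 10.11 to 11.90 and back to 10.38, and STAT5B from 8.73 to 7.16 and up to 9.18. Among lineage factors of blood cells, 4 fell and 2 rose of 44 measured. LMO2, a bridging factor of blood cell precursors, stood at 4.51, 8.85 and 6.37, and ETV6, ELF4 and ETS1, all ETS factors as PU.1 is, fell by 1.14, 1.35 and 1.06. BCL6, the germinal centre repressor, was at 8.71 at day 1 and 8.67 at day 3. IKZF5 rose with XBP1.

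Of the genes that fell by day 1, 178 rose again. HEY1, a Notch target repressor, stood at 9.38, 7.83 and 10.18. INHBE, an activin subunit, stood at 9.61, 8.11 and 10.30, and RIMKLA, an enzyme of N-acetylaspartylglutamate synthesis, at 7.01, 5.91 and 8.15. ADGRF5, an adhesion receptor, stood at 9.40, 5.75 and 7.93, and with MTURN was still past the rule below day 0. FAM117B, CISD1, an iron-sulfur protein of mitochondria, and STAT5B recovered by 2.11, 2.01 and 2.02 log2. RDH10, a retinol dehydrogenase, was at least 3.19-fold higher at day 3 than at day 1, KLK6, a serine protease, at least 3.11-fold, and TRIM9 at least 3.01-fold, though another TRIM9 probe changed by 0.20. Of the 176 recovered in full, 127 had a day 3 level within 0.5 log2 of day 0 and 1 passed the rule above it. With an offset of 50, 99 falls were reversed in place of 178.

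Ciliary transport genes gave 5 rises, 4 of them after a fall by day 1, and 1 fall of 44 measured, with a median change of 0.11 log2. DYNC2LI1, a light chain of the dynein that moves cargo in cilia, stood at 8.81, 6.07 and 8.12. DCDC2, a microtubule-binding protein of cilia, stood at 8.52, 6.12 and 7.80, and IFT25, a transport subunit, at 9.55, 8.31 and 9.76. KIF3B, a kinesin motor subunit, and ARL6 rose by 1.03 and 1.00. CEP164, of the basal body, moved the other way, at 7.16, 8.81 and 7.14.

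Mitochondrial genes had small positive medians and few calls. Mitochondrial ribosomal protein genes had a median change of -0.76 log2 to day 1 and 0.22 after it, over 76 genes above background on all arrays. Of these MRPL34 and MRPL39 rose, and 57 changed by more than 0, but a second MRPL39 probe changed by 0.16 and the MRPL39 call ended under 3 alternatives. Oxidative phosphorylation genes had medians of -0.63 and 0.24 over 73 genes, and 0 passed the rule in either direction, with 56 of 74 above 0. Of mitochondrial carrier and import genes 3 of 62 rose, SLC25A21, SLC25A36 and SLC25A1, the citrate carrier. The median of ribosome biogenesis genes was -0.57 to day 1 and -0.01 after it over 75 genes, with PNO1 up and NOP2, NOL6 and POP1 down. Cytosolic ribosomal protein genes had a median change of 0.14, with rises of RPL39L and RPS27L among 63.

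**Figure D5:**
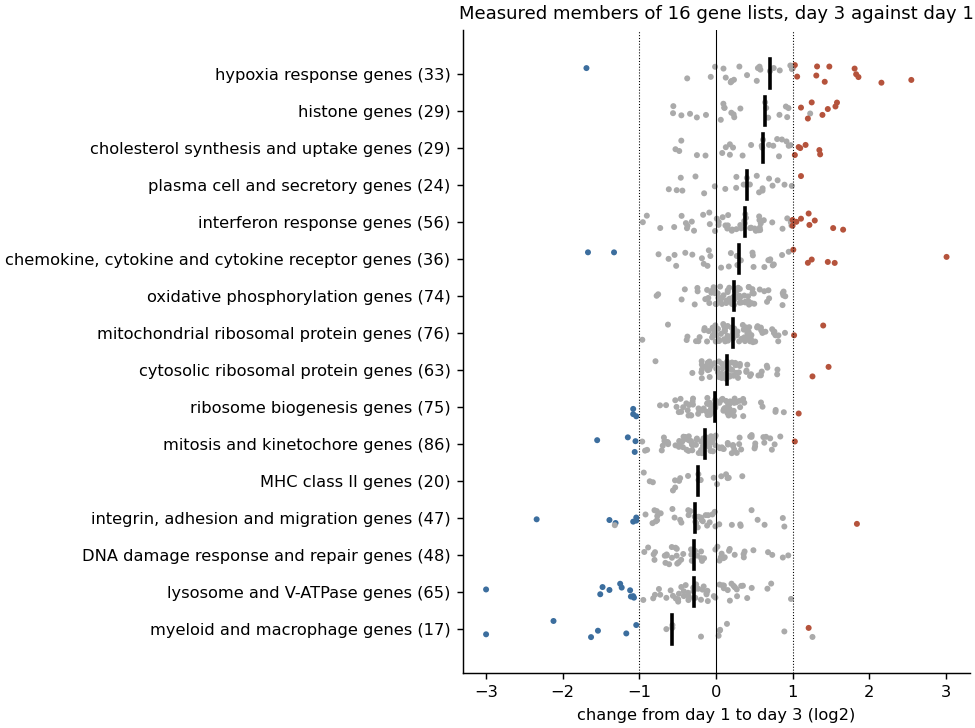
Change from day 1 to day 3 on the log2 scale of each measured member of 16 gene lists, with the number measured after each name; black bars are medians, dotted lines mark 1 log2, red and blue points passed the size rule, and grey points beyond the lines fell short by their bound. Hypoxia, histone and cholesterol genes have medians above 0.6, but the histone median is 0.24 over members above background on all 3 arrays. Myeloid genes have the lowest median, -0.57, which is -0.01 with a detection p-value under 0.05.

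Of the 80 genes that fell after no call at day 1, 7 were lower at day 3 than on both other days by the rule. They were TST, STEAP3, WDR46, ABCB1, TEX261, MAPKAPK3 and CDC20. TST, a sulfurtransferase, stood at 8.94, 9.32 and 7.81, STEAP3, a metalloreductase, at 7.28, 7.41 and 6.03, and ABCB1, a drug efflux pump, at 7.31, 7.54 and 6.22. CDC20, the activator of the anaphase-promoting complex, stood at 11.88, 11.93 and 10.86. All 7 changed by under 0.5 log2 to day 1, and with an offset of 50 the number was 3. The other 73 had a median change of 0.72 log2 to day 1 and -1.09 after it. HOXB7, a homeobox factor, stood at 9.04, 9.87 and 8.35, and NFE2L3, a CNC family factor, at 8.42, 9.35 and 7.90.

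The mitosis and kinetochore list gave 4 falls and 1 rise of 86 measured, with a median change of -0.15 log2. Counts in this paragraph are to be read beside 3.54% of all measured genes higher and 3.92% lower. KIF20B, a kinesin of cytokinesis, went from 10.12 at day 1 to 8.57, and CDC25B, a phosphatase that activates CDK1, from 11.38 to 10.23. CENPE, a kinetochore motor, went from 8.65 to 7.60. Its call ended without background correction, with an offset of 50 and in the authors' deposited values. CCNA2, cyclin A2, went from 8.27 to 9.31, a call that ended under 4 alternatives, with changes of 0.94 to 0.99. MKI67 changed by -0.43. Of 57 measured replication genes MCM10 rose and MCM5 and RPA1 fell. Of 28 measured G1 cyclin, MYC and E2F genes CCND3, cyclin D3, fell, at 9.33, 10.69 and 9.24, while CCND2 was at 12.67 and then 12.44. MYC changed by 0.40, SKP2 by -0.07 and CDKN1B by 0.24.

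Marker genes of the cell line were above background. TNFRSF8, which encodes CD30, stood at 10.09, 10.28 and 9.54, FSCN1, fascin, at 13.40, 13.74 and 13.51, and CCL17, a chemokine of Hodgkin lymphoma cells, at 11.64, 12.61 and 13.09. Of 39 Reed-Sternberg cell genes 32 were measured, 4 rose (CCL22, BCL2A1, IL13 and TNFSF4, the ligand of OX40) and STAT6 fell. The TNFSF4 call ended under 4 alternatives, with changes of 0.91 to 0.99. Of 26 T and NK cell markers 2 were measured and of 18 stromal, epithelial and endothelial markers 3, none past the rule, and CD3D, CD3E and EPCAM were not above background. Among common reference genes HPRT1 alone of 13 passed the rule, at 10.30, 9.16 and 10.54. GAPDH changed by 0.02 and ACTB by 0.21, but another ACTB probe changed by -1.58.

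Where a called gene had other measured probes, they mostly moved the same way. For genes that rose there were 28 such probes, and 27 changed by more than 0. For genes that fell there were 21, of which 19 changed by less than 0. By the rule alone 10 of the 28 and 6 of the 21 passed in the same direction and 0 in the other. Of all calls, 22 rises and 28 falls rest on a bound, and 20 rises and 37 falls reached 4-fold. The members nearest the size rule were LY6E at 1.0006 inside and TMEM71 at 0.9993 outside among rises, and TPGS2 at -1.0002 inside and DHDDS at -0.9996 outside among falls.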

How the data were processed

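RNA of L428tetPU.1 cells at day 0, day 1 and day 3 after tetracycline removal was read on 3 Illumina bead arrays, 1 per day, and BeadStudio 3.3.7 is named by the submitters' processing notes. RNA was extracted with TRIzol and amplified with a TotalPrep kit, per the labels' protocols. The authors deposited 1 bead intensity and 1 detection p-value per probe and array for 48701 probes, per the file headers, and neither was normalized. The authors' deposited log2 table held log2 intensities less each array's 75th percentile and each probe's median over the arrays, as found by comparison with the intensities to within 2e-06. It served as an alternative, its scale, centring and direction are thus known, and the median of each column was 0.00.

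Intensities were corrected with the normexp model of limma 3.58.1 (R 4.3.3), which inferred the background from the detection p-values. After an offset of 16, the 3 arrays were quantile normalized and taken to log2. A larger offset shrinks the changes of dim probes, and a shift shared by most genes is lost in quantile normalization. Further steps used Python 3.11.15, pandas 2.3.3 and numpy 2.4.6, and figures matplotlib 3.10.9. Probes were named from the platform annotation updated through RefSeq of GRCh38.p14: 24089 by gene ID, 50 by accession and 164 by platform symbol, while 24398 stayed unnamed. The brightest probe, by its mean over the arrays, stood for its gene.

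The size rule, its bound and the detection threshold of 0.01 are given with the results; the rule was tested on simulated data. With 1 array per day no p-value between days was computed, and the number of arrays limits the precision. The gene lists (53), classes and named genes were chosen with earlier results of these data known. Named genes were SPI1, the 12 widest rises and falls above background on both arrays, the 6 widest of each by bound, the 8 widest per course, up to 4 called members per list (all where 5 or fewer passed, and 2 where 0 did) and 26 genes always named. The 9 alternatives were no background correction, an offset of 50, scaling to the 75th percentile, the authors' values, the day 1 and day 3 arrays normalized alone, a detection p-value under 0.05, detection on both arrays, no detection filter, and the mean over a gene's probes. Promoters came from RefSeq on GRCh38.p14.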

Additional observations from a re-analysis of the deposited data

How the results depend on the processing

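No paired analysis was possible because each day has 1 array and the result comes from no test. Each value rests on 1 array per day, so no replicate could be left out, and differences between cultures are not measured. Of the 330 rises, 196 passed the rule under each of the 5 other normalizations, and of the 365 falls 262; under each single one of those 5, 330 of 330 rises and 365 of 365 falls kept their direction. HSPA4L and GSTM1 lost their call under each of those 5; the cause was not tested. Dim probes limit what can be called: 10049 named genes were not measured.

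With an offset of 50 there were 200 rises, 99 reversed falls, 35 late rises, 3 late falls and 3 histone rises, in place of 330, 178, 56, 7 and 7. In the authors' deposited values 7 genes rose at both steps in place of 12, 37 rose late and 4 histone genes rose, and 4 histone genes also rose without background correction. Counting detection on both arrays alone, 39 genes rose late and 8 rose at both steps, both within 1.5 times. The other counts of calls and list members that were run stayed within 1.5 times of the reported ones under the 9 alternatives, as did those of the courses under the 8 that use all 3 arrays, with full and partial reversals counted together. Genes not called after day 1 were not counted again. Of 167 called genes named here, 135 to 167 kept their call in an alternative and 0 reversed. Over 53 lists and the alternatives, 469 of 477 medians moved by less than the probe error. That error is of the change of 1 probe, and most list medians are smaller than it. A median could thus come near 0 and still be counted here. Without the detection filter the chemokine, cytokine and cytokine receptor median was 0.05 in place of 0.30. The B cell identity and receptor signalling median was -0.07 in place of -0.34. In 9 lists, with reported medians no wider than 0.23, 19 medians changed sign. The moves wider than the probe error were of the myeloid, histone and 2 marker lists, when the detection filter changed. The myeloid median was -0.01 with a detection p-value under 0.05 and -0.02 without the filter, and the histone median 0.06 without it.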

Other observations

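Other lists gave small numbers of calls between day 1 and day 3, to be read beside 3.54% of all measured genes higher and 3.92% lower. MHC class II genes had 14 of 20 measured members below 0, none past the rule, and a median change of -0.23 log2. CIITA, their master regulator, changed by -0.86 and HLA-DPB1 by -0.94. HLA-DRA changed by -0.03 and CD74 by 0.07, but a second CD74 probe changed by 0.96. Of 16 measured genes of MHC class I and antigen processing, 0 passed the rule. DNA damage response and repair genes had 31 of 48 below 0 and 0 past the rule, and aminoacyl-tRNA synthetase genes had 26 of 34 below 0, with TARS3 higher by bound and VARS1 lower, though a second VARS1 probe changed by -0.01. Of 23 measured p53 target genes PMAIP1, the BH3-only protein NOXA, rose by 1.52 while PLK3 and DDB2 fell by 1.25 and 1.40. Pro-apoptotic genes gave rises of BNIP3, BNIP3L, PMAIP1 and PDCD5 and a fall of BAK1, of 29 measured.

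Of 104 measured chromatin genes KDM4B and ARID5B were higher and CHD4, SMARCD2, SMARCC2 and BRD8 lower. These 2 rises and 4 falls were no larger a share than over all measured genes, 3.54% and 3.92%. A second SMARCC2 probe changed by -0.445, and the SMARCC2 call ended with the mean over a gene's probes. ERK feedback genes gave a rise of DUSP1, a MAP kinase phosphatase, by 1.18 and a fall of ETV5 by 1.07 of 14. Other ETV5 probes changed by -0.64 and -0.71. The ETV5 call ended without background correction, with an offset of 50, in the authors' deposited values and with the mean over a gene's probes. Calls numbered 0 among AP-1 and immediate early genes (17 measured), cell cycle inhibitor genes (26), amino acid transporter genes (21) and RNA polymerase subunit genes (26). EGR1 changed by 0.62. Single calls or pairs came from splicing factors (SF3B4 lower, PRPF39 higher), heat shock genes (BAG2 and HSPA4L higher, DNAJB12 lower), redox genes (TXNRD1 and GSTM1 lower), RAB genes (RAB33B higher, RAB5C and RAB29 lower), autophagy genes (ATG4A lower beside BNIP3 and BNIP3L), polyamine and one-carbon genes (OAZ2 and IMPDH1 lower), the TNF superfamily (TNFSF4), proteasome genes (PSMG1 higher) and translation factors (EIF3M higher). Of 231 measured zinc finger genes 3 rose and 3 fell.

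Of the 24398 unnamed probes, 1877 were above background at day 1 or day 3, and 50 of them were higher and 39 lower by the same rule, or 2.66% and 2.08%.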
